A study of Homo sapiens with 21 samples.

Results

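The comparison described here asks how the response of OCI-AML5 cells to UM171 at 24 h differed when EPCR was disrupted. It used 12 of the 21 libraries of the series, chosen by their labels: 3 of control cells in DMSO, 3 of control cells in UM171 for 24 h, 3 of sgEPCR cells in DMSO and 3 of sgEPCR cells in UM171 for 24 h. OCI-AML5 is a human acute myeloid leukaemia line, DMSO is the vehicle, and sgEPCR cells carry a guide RNA against EPCR, the protein C receptor encoded by PROCR. The labels call them a clone and EPCR null, and their genotype tag reads EPCR knockdown. The study's text describes the sgEPCR cells as separate clones, but the labels do not tie a replicate number to a clone or a culture. For the control libraries nothing says that they came from separate cultures. The p-values therefore measure the spread between libraries of both genotypes, which may be technical. The guide of the control cells is not in the labels, and the study's text names sgAAVS1. The labels give UM171 at 500 nM, whereas the study's text gives a lower dose for this line. The control DMSO libraries are labelled 72 h and the sgEPCR DMSO libraries 24 h, so in the control response UM171 and the time in culture cannot be told apart.

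UM171 is a small molecule used to expand blood stem cells outside the body. It acts through the ubiquitin ligase adaptor KBTBD4, which leads to loss of the LSD1-CoREST repressor complex, of which KDM1A (LSD1) and RCOR1 are members. EPCR marks blood stem cells and binds protein C, an anticoagulant and cell-protective protease. Dividing myeloid cells make their DNA replication genes mainly at the start of S phase and their mitotic genes in G2, and they need folate, serine and nucleotide synthesis, proteasomes and respiration to grow. Immediate early transcription factors such as the KLF, JUN and NR4A proteins are switched on quickly by signals and stress, and integrins, Fc receptors and lectins appear as myeloid cells mature.

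Totals lay between 24.3 and 51.5 M counts per library. Mitochondrially encoded genes took 7.73 to 9.39% of counts in 10 libraries, but 35.9% in replicate 1 of the sgEPCR DMSO group and 32.2% in replicate 2 of the sgEPCR UM171 group, which also stood apart from the other libraries of their groups. Results are therefore also given without both. The sgEPCR pairs that then remained had a chi-square of counts per gene of 1.57 in UM171 and 4.06 in DMSO. Control pairs had 2.87 to 7.2. The spread in that smaller fit may thus be technical too. Levels are given as TMM-scaled CPM (counts per M) of each library, in the order of the replicate numbers. A response is the log2 change of UM171 against DMSO within a genotype, and the difference is the sgEPCR response minus the control response. Myeloid markers such as SPI1, PTPRC and CD33 were present, whereas KIT was too low to test. Markers of other cell types were low: summed over their lists, T cell markers reached at most 37.7 counts per M, B cell markers 24.9, fibroblast markers 19.9, epithelial markers 0.427 and endothelial markers 0.0967. The T cell sum (25.8 to 37.7) and the fibroblast sum (14.3 to 19.9, mostly PDGFRA and COL3A1, with DCN and LUM at 0 in the 12 libraries) were highest in the sgEPCR UM171 libraries. Their part in the results was not tested.

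PROCR, the targeted gene (ENSG00000101000, GRCh38 chromosome 20, 35172072 to 35216240), gave 2.79, 3.36 and 2.56 CPM in control DMSO and 38.1, 38 and 37.6 CPM in control UM171. It gave 4.42, 3.9 and 3.45 CPM in sgEPCR DMSO and 6.41, 5.71 and 6.19 CPM in sgEPCR UM171. The genotypes did not overlap in either treatment, with sgEPCR libraries slightly the higher in DMSO and far the lower in UM171. The control response was 3.71, the sgEPCR response 0.65 and the difference -3.06 (SE 0.17, adjusted p = 5.8e-07). PROCR RNA was therefore not absent from sgEPCR cells, and the gene checks the label only through its response. Of 418 genes that were over 2 on the log2 scale above DMSO in control cells after 6 h, 374 had a positive response in sgEPCR cells at 24 h (median 2.07), where the median over all genes was -0.01. In control cells 416 were positive (median 2.81), a comparison that shares its DMSO libraries with the 6 h one. Genes that passed the count filter through a UM171 group had to be positive there, so these counts are a description. The median difference of the 418 genes was -0.84. At the strict limits given below 4 were higher and 26 lower, where 3.6% and 4.17% of all genes tested were.

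Among 15901 genes tested, 573 had a higher response in sgEPCR cells (3.6% of the genes tested) and 663 a lower one (4.17%) at an adjusted p under 0.0001 and a difference over 2-fold. The study states these numbers for single comparisons with untreated or DMSO libraries, not for a difference of responses. Genes past both limits are named called below. At an adjusted p under 0.05, with no minimum fold, 3483 genes were higher (21.9%) and 3675 lower (23.1%). The median difference over all genes was -0.02. With limma on log2(TPM + 1) the strict limits left 28 genes higher and 1 lower. The count past the strict limits was 577 with a GC offset, 424 with total count scaling, 617 to 801 without any 1 of the 10 libraries of usual mitochondrial share and 0 with a replicate block, under which 5018 genes passed an adjusted p of 0.05. Without the 2 libraries rich in mitochondrial RNA all 1236 called genes kept their sign, with 563 of the 573 and 647 of the 663 still called.

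Over all genes tested, 3586 had a positive control and a negative sgEPCR response and 3515 the reverse, and choosing large differences favours opposite signs, so the shares among called genes are a description. Of the 663 lower ones, 525 had a positive control response and a negative sgEPCR response, 73 were positive in both and 65 negative in both. Of the 573 higher ones, 411 had a negative control response and a positive sgEPCR response, 150 were positive in both and 12 negative in both. The median responses of the lower genes were 0.76 in control and -0.80 in sgEPCR cells, and those of the higher genes -0.54 and 1.62. The groups crossed over: the lower genes were on median 0.76 above control in sgEPCR DMSO libraries and 0.74 below it in UM171 libraries (a median of -0.74), the latter a comparison in which both groups are labelled 24 h. The higher genes were at -0.90 in DMSO and 1.23 in UM171. Taken as single contrasts at the same limits, the control response passed upward for 852 genes (5.36%) and downward for 265 (1.67%), and the sgEPCR response upward for 1112 (6.99%) and downward for 530 (3.33%). Responses past these limits in both genotypes but in opposite directions were found for 41 genes, 13 with a positive response in control cells and 28 with a positive one in sgEPCR cells.

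**Figure D1:**
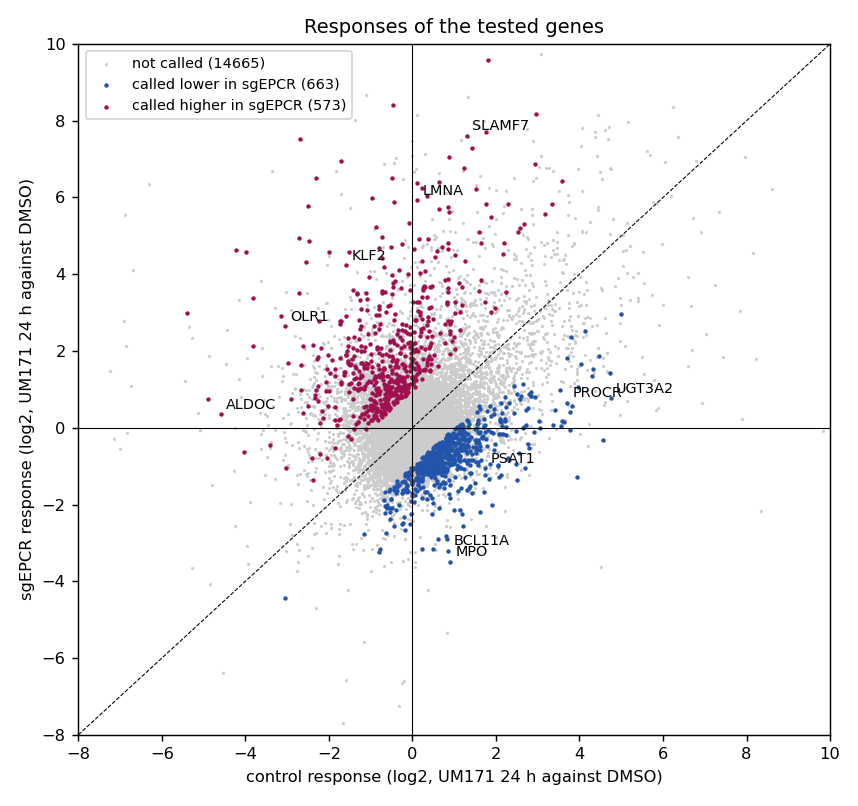
Each point is a tested gene, with its control response on the x axis and its sgEPCR response on the y axis (both log2, UM171 24 h against DMSO), and called genes in colour. The dashed line marks equal responses, and 7 genes lie outside the axes. Lower genes (663) lie mostly to the right of 0 and below it, and higher genes (573) mostly to the left of 0 and above it.

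Over 47 gene lists outside inflammation and detoxification, the lowest median differences belonged to genes of growth and division. The list of folate, serine and nucleotide synthesis had a median of -1.43 (29 of 29 genes tested, 11 called lower, 26 lower at an adjusted p under 0.05, none higher at either limit). G2 and mitosis genes had -1.33 (45 of 45 tested, 20 called lower, 41 lower at 0.05), DNA replication genes -1.27 (44 of 44, 18 called lower, 36 at 0.05) and proteasome subunits -1.13 (33 of 33, 13 called lower, 33 at 0.05). None of these 4 lists had a member higher at either limit. In all 4 the control median was positive (0.44, 0.55, 0.40 and 0.78) and the sgEPCR median negative (-0.84, -0.82, -0.81 and -0.38). Their medians were -1.38, -1.32, -1.24 and -1.15 without the mitochondria-rich libraries. In these bulk samples fewer cells in a phase and less RNA per cell cannot be told apart.

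**Figure D2:**
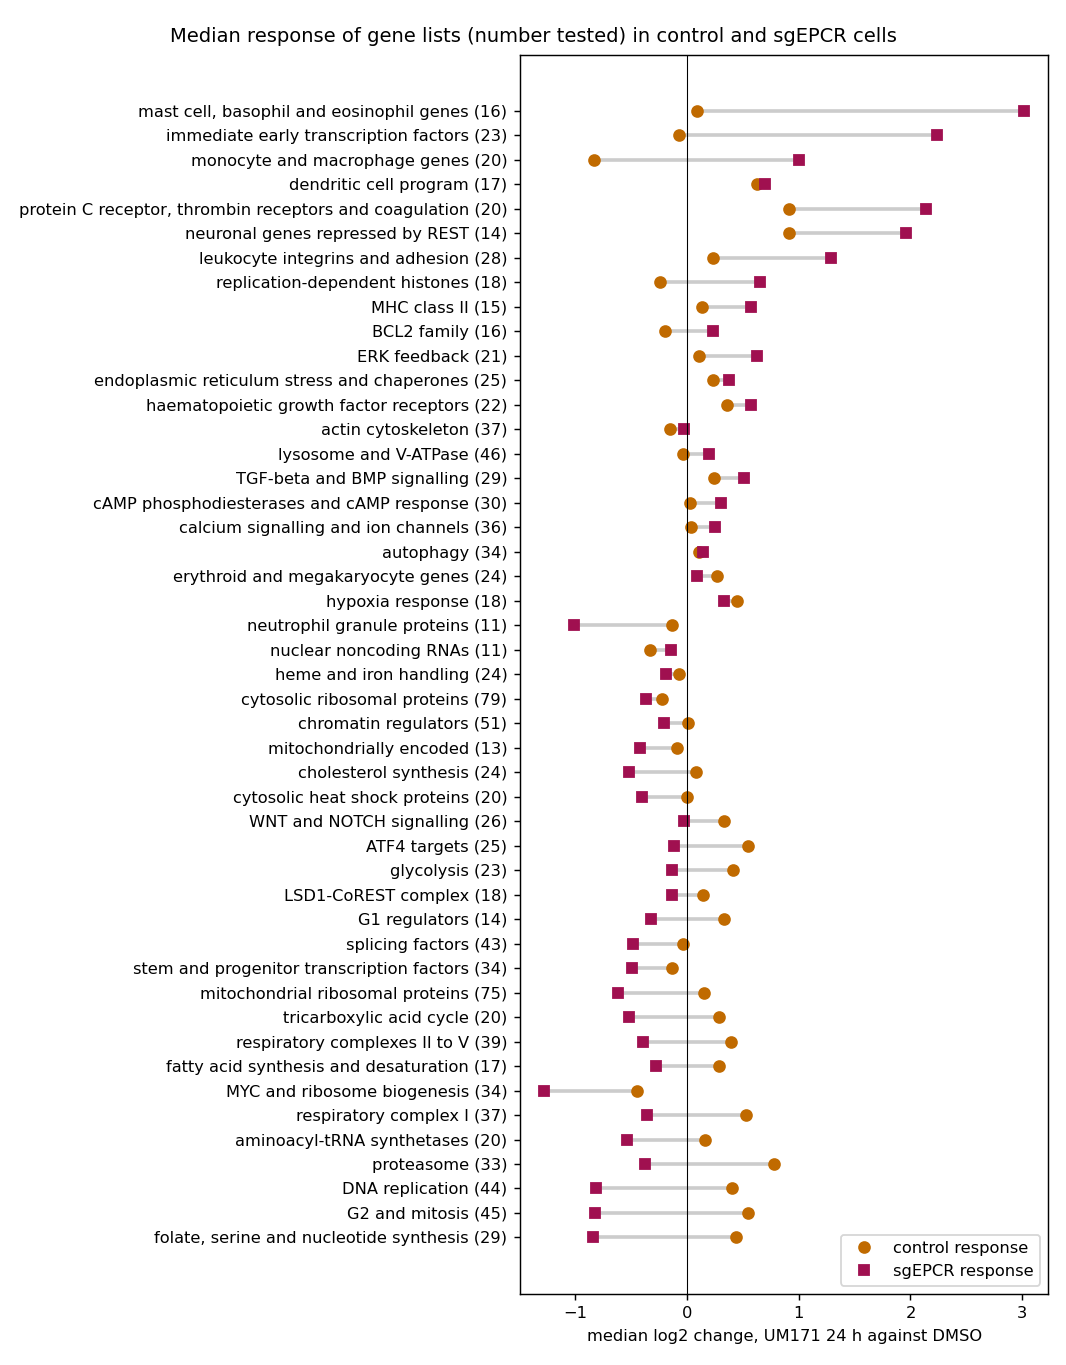
For each of 47 lists, with the number of genes tested, the circle marks the median control response and the square the median sgEPCR response (log2, UM171 24 h against DMSO). Lists are ordered by the median difference, from mast cell, basophil and eosinophil genes (3.02) at the top to folate, serine and nucleotide synthesis (-1.43) at the bottom.

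Among the replication genes, POLA1, the catalytic subunit of the polymerase that starts each new strand, gave 29.3, 25.8 and 29.3 CPM in control DMSO, 71.7, 70.2 and 67.2 in control UM171, 93.3, 85.5 and 88.3 in sgEPCR DMSO, and 48.7, 49.7 and 48.6 in sgEPCR UM171. No 2 of the 4 groups overlapped, and the sgEPCR DMSO libraries were the highest. The difference was -2.17 (SE 0.10, adjusted p = 2.0e-07). CHAF1B, a subunit of the histone chaperone that loads nucleosomes behind the fork, had a control response of 0.96, an sgEPCR response of -0.91 and a difference of -1.87 (SE 0.15, adjusted p = 4.0e-06). Relative to the control DMSO mean, the median of the 44 genes was 0.41, 0.42 and 0.38 in control UM171, 0.56, 0.74 and 0.76 in sgEPCR DMSO and -0.12, -0.32 and -0.11 in sgEPCR UM171 (log2).

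Mitotic genes moved in the same way. KIF20A, a kinesin needed for cytokinesis, gave 43.4, 43.5 and 43.5 CPM in control DMSO, 74, 72.8 and 72.9 in control UM171, 89.8, 67.5 and 71.3 in sgEPCR DMSO and 27.2, 31.6 and 25.2 in sgEPCR UM171. The sgEPCR UM171 libraries were the lowest of the 4 groups, and control UM171 and sgEPCR DMSO overlapped. Its difference was -2.20 (SE 0.16, adjusted p = 2.6e-06). HMMR, a spindle-associated protein, had a control response of 0.98, an sgEPCR response of -0.95 and a difference of -1.93 (SE 0.24, adjusted p = 9.2e-05). Among the G1 regulators, of which 14 of 16 were tested, CDKN2C, an inhibitor of CDK4 and CDK6, was the single called gene, at -1.62 (SE 0.14, adjusted p = 8.1e-06).

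Promoter sequences show what the called genes carried beside their values. RefSeq promoters (GRCh38.p14, 250 bases before to 50 after the start) were matched by symbol for 11053 of the tested genes. Motifs were searched as letters on both strands, and overlapping matches were counted. CCAAT together with TTTGAA, the CHR element that recruits cell cycle repressors and activators to G2 genes, stood in 19 of 38 promoters of the G2 and mitosis list (50%) and in 4.25% of all matched promoters. The E2F letters TTTCCCGC or TTTGGCGC stood in 18 of 36 DNA replication promoters (50%) and in 3.66% of all. Over called genes the shares were lower: CCAAT with TTTGAA in 7.12% of 548 lower and 5.05% of 416 higher promoters, and the E2F letters in 5.84% and 1.44%. The AP-1 letters TGACTCA went the other way, with 5.77% of higher, 1.82% of lower and 3.15% of all promoters. A match is a description of letters, and no test was made of these shares. Promoters of 4 named genes are shown, a mitotic and a replication gene for the lower side and EMP1 and GPNMB for the higher side. They are examples that carry the letters named, which most promoters of called genes do not. The GPNMB stretch lies inside the annotated span of the gene (chromosome 7, 23235967 to 23275108), before a RefSeq start further along. Each is given as the 250 bases before the RefSeq start, with the matches named beside it in capitals and other searched motifs left in lower case.
HMMR (chr5:163460382-163460631, + strand, CCAAT on both strands and TTTGAA): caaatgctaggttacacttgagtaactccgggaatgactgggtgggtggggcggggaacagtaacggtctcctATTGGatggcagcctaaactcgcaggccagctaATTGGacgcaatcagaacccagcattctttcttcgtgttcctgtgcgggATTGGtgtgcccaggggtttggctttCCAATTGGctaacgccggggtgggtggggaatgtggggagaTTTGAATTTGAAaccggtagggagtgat
POLA1 (chrX:24693668-24693917, + strand, TTTGGCGC on the opposite strand): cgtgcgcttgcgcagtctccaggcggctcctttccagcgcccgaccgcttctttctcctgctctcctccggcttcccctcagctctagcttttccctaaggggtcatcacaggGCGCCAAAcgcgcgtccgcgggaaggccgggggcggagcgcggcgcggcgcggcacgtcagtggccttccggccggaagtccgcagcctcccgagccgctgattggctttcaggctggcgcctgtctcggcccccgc
EMP1 (chr12:13196476-13196725, + strand, TGACTCA on the opposite strand): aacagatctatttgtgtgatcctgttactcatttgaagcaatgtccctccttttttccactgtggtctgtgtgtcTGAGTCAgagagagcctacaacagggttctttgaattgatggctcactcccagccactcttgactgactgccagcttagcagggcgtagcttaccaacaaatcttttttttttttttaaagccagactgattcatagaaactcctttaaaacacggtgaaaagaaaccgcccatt
GPNMB (chr7:23246525-23246774, + strand, TGACTCA on the opposite strand): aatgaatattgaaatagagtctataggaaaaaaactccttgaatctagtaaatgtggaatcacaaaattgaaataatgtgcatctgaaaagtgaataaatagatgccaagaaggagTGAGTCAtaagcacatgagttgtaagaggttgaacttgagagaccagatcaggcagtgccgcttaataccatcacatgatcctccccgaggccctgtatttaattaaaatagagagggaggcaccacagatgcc

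Biosynthesis followed division. PSAT1, an enzyme of serine synthesis, gave 76.3, 78.7 and 77 CPM in control DMSO, 256, 254 and 265 in control UM171, 212, 233 and 225 in sgEPCR DMSO and 104, 116 and 102 in sgEPCR UM171. The 4 groups did not overlap, and the responses were opposite, at 1.74 and -1.05. Its difference was -2.79 (SE 0.10, adjusted p = 5.9e-08). SHMT1, which passes a carbon from serine to folate, had a difference of -2.25 (SE 0.20, adjusted p = 8.9e-06). ELOVL6, which elongates long-chain fatty acids, went from 9.08 ± 0.0909 to 38.3 ± 1.52 CPM in control cells and from 40.8 ± 6.11 to 16.8 ± 3.38 CPM in sgEPCR cells (mean ± SD, n = 3), with a difference of -3.36 (SE 0.20, adjusted p = 7.9e-07). The fatty acid list as a whole had a median of -0.87 (17 tested, 4 called lower), and FADS1, a desaturase, was at -2.02 (SE 0.10, adjusted p = 2.5e-07). Sterol synthesis moved less, with a median of -0.29 over 24 genes, of which 2 were called lower: ACAT2 at -1.53 and INSIG1 at -1.42. In the aminoacyl-tRNA synthetase list (median -0.95) 4 of 20 genes were called lower, among them IARS1 at -1.41 and FARSB at -1.47.

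Energy metabolism and protein turnover were on the same side. Nuclear genes of respiratory complex I had a median of -0.94 (37 tested, 5 called lower, 28 at 0.05) and those of complexes II to V -0.86 (39 tested, 4 called lower, 24 at 0.05). ATP5MC1, a ring subunit of ATP synthase, went from 24.9 ± 1.97 to 55.1 ± 3.32 CPM in control cells and from 52.8 ± 7.77 to 31.5 ± 5.49 CPM in sgEPCR cells (SD, n = 3), a difference of -1.89 (SE 0.20, adjusted p = 3.3e-05). FH, fumarate hydratase of the tricarboxylic acid cycle, was at -1.60 (SE 0.11, adjusted p = 1.8e-06) in a list with a median of -0.76. Mitochondrial ribosomal proteins had a median of -0.75 (75 tested, 4 called lower, 52 at 0.05). Cytosolic ribosomal proteins had a median of -0.18 with none of 79 called and 6 lower at 0.05, and with limma on log2(TPM + 1) their median was 0.05. The 13 mitochondrially encoded genes had none past either limit (median -0.25, and 0.09 without both libraries rich in them, but 1.48 without sgEPCR DMSO replicate 1 alone and -1.61 without sgEPCR UM171 replicate 2 alone). Of the proteasome subunits PSMB2 had 111, 109 and 111 CPM in control DMSO, 276, 282 and 286 in control UM171, 306, 257 and 254 in sgEPCR DMSO and 199, 258 and 199 in sgEPCR UM171. In each sgEPCR group the library rich in mitochondrial RNA was the highest, and the sgEPCR groups overlapped through the one in UM171. Its difference was -1.67 (SE 0.16, adjusted p = 1.3e-05) and -1.70 without them.

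**Figure D3:**
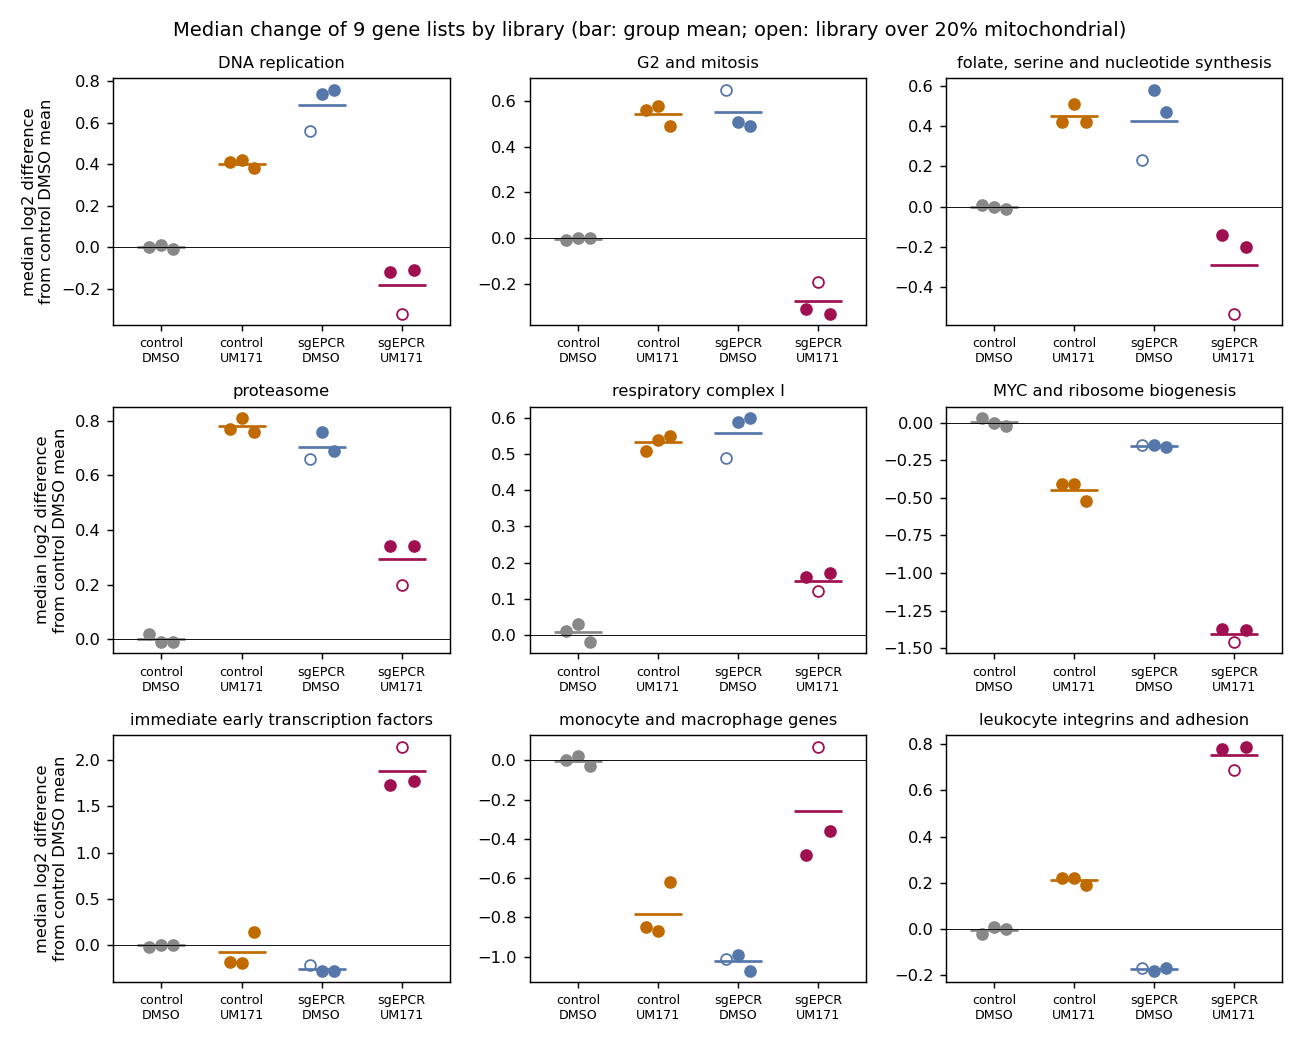
Each point is a library: the median over a list's tested genes of the log2 CPM difference from the gene's control DMSO mean, for 9 lists, with bars at group means and open circles for the 2 libraries over 20% mitochondrial. In the DNA replication panel control UM171 lies between 0.38 and 0.42 and sgEPCR DMSO between 0.56 and 0.76, above the sgEPCR UM171 libraries at -0.32 to -0.11, whereas immediate early factors reach 1.73 to 2.14 in sgEPCR UM171.

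In the MYC and ribosome biogenesis list both genotypes had negative medians. For its 34 genes the control median was -0.45, the sgEPCR median -1.28 and the median difference -0.92 (6 called lower, 28 lower and 1 higher at 0.05). MYC itself gave 958, 894 and 914 CPM in control DMSO, 388, 395 and 396 in control UM171, 530, 574 and 587 in sgEPCR DMSO and 152, 122 and 153 in sgEPCR UM171. Its difference of -0.75 (SE 0.13, adjusted p = 8.8e-04) was not called. NOLC1, a nucleolar chaperone of ribosome assembly, was at -1.54 (SE 0.16, adjusted p = 2.8e-05) and POLR1B, a subunit of RNA polymerase I, at -1.29 (SE 0.13, adjusted p = 2.8e-05). Splicing factors had a median of -0.56 (43 tested, 6 called lower), led by SNRPA, a U1 snRNP protein, at -2.23 (SE 0.12, adjusted p = 4.4e-07). HNRNPL, a splicing regulator, went from 137 ± 4.9 to 398 ± 5.34 CPM in control and from 386 ± 65.1 to 263 ± 43.9 CPM in sgEPCR cells (SD, n = 3), at -2.09 (SE 0.20, adjusted p = 1.5e-05).

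Because the control DMSO libraries are labelled 72 h, the control response of some lists is given at every time. These values come from a fit of all 21 libraries, with the same DMSO libraries throughout. Those of the immediate early and the mast cell lists are given where these lists are described. The times of the remaining lists are not described. For DNA replication the control medians at 6, 24, 48 and 72 h of UM171 were -0.23, 0.40, 0.12 and -0.62, the last at the time that the DMSO label shares. For G2 and mitosis they were -0.04, 0.55, 0.24 and -0.18, and for proteasome subunits -0.33, 0.78, 0.43 and -0.30. For these 3 lists the control median was highest at 24 h and negative at 6 and 72 h. For MYC and ribosome biogenesis the control medians were -0.45, -0.45, -0.83 and -1.31. The value at 72 h, the time of the DMSO label, was thus close to the sgEPCR median of -1.29 at 24 h in this fit. Between the UM171 24 h groups alone, where the labelled time is equal, sgEPCR libraries were lower by a median of -0.56 for DNA replication, -0.82 for G2 and mitosis and -0.43 for the proteasome. Between the DMSO groups, labelled 24 and 72 h, they were higher by 0.66, 0.53 and 0.69. For MYC and ribosome biogenesis the median of sgEPCR against control was -0.89 between the UM171 24 h groups and -0.07 between the DMSO groups.

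**Figure D4:**
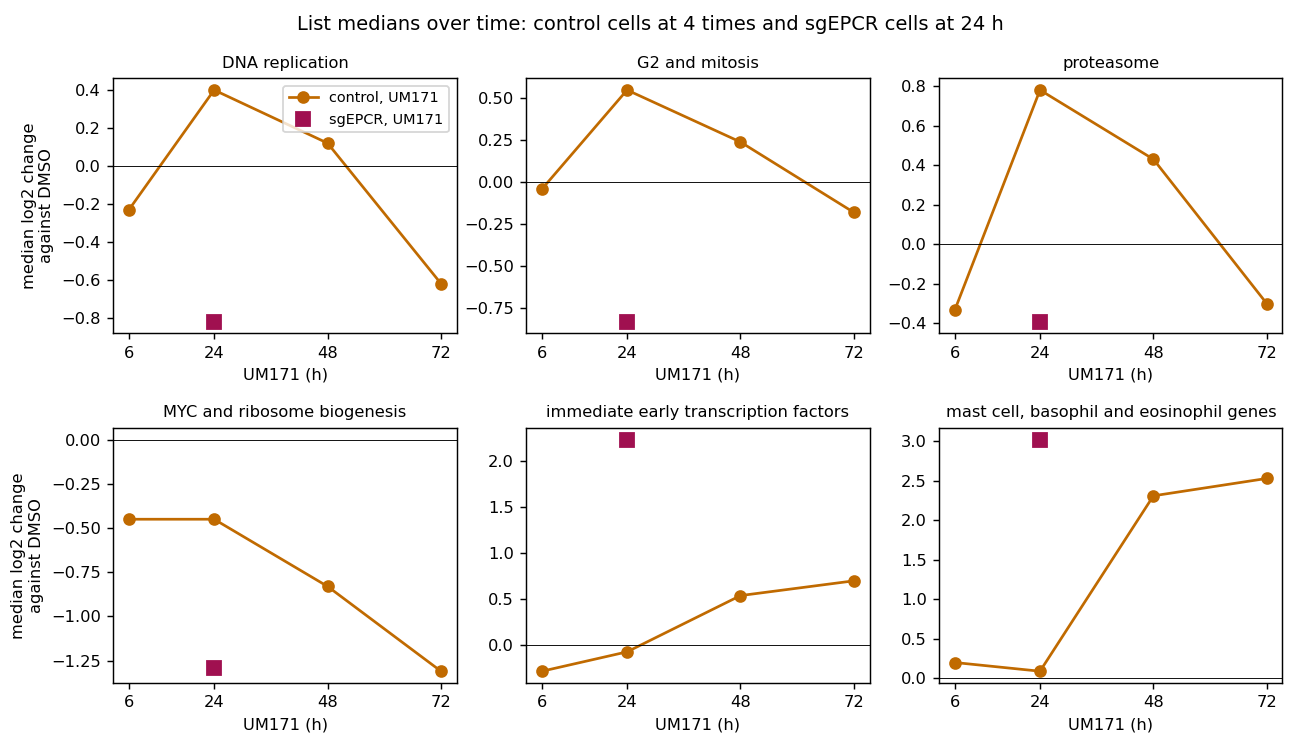
The line joins the control list medians at 6, 24, 48 and 72 h of UM171 and the square is the sgEPCR median at 24 h (log2 change against the DMSO libraries of the same genotype), for 6 lists. DNA replication, G2 and mitosis and proteasome genes peak at 24 h in control cells (0.40, 0.55 and 0.78) while the sgEPCR squares lie below 0, and mast cell, basophil and eosinophil genes reach 2.31 at 48 h in control cells and 3.02 at 24 h in sgEPCR cells.

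On the higher side stood the immediate early transcription factors. Their median difference was 1.62, with 23 of 26 tested, 7 called higher, 16 higher at 0.05 and none lower at either limit. The control median was -0.07 and the sgEPCR median 2.24. KLF2, a transcription factor of leukocyte quiescence, gave 9.47, 9.46 and 9.24 CPM in control DMSO, 3.43, 2.46 and 3.59 in control UM171, 8.51, 5.76 and 6.1 in sgEPCR DMSO and 111, 151 and 116 in sgEPCR UM171. The last group was far above the others, and control UM171 was the lowest. The difference was 5.81 (SE 0.27, adjusted p = 1.9e-07). The other called members were FOSB (4.63), NR4A3 (5.70), KLF6 (2.78), ATF3 (2.76), JUN (2.43) and JUND (1.55, which had an adjusted p of 0.15 with a GC offset). FOSL1 at 0.07, FOSL2 at -0.35 and SRF at -0.04 did not pass an adjusted p of 0.05. Control medians of this list were -0.28, -0.07, 0.54 and 0.70 at 6, 24, 48 and 72 h.

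BTG2, an antiproliferative factor, was at 2.17 (adjusted p = 1.0e-06) and PLK2, a polo-like kinase, at 1.51 (adjusted p = 8.8e-06), while CDKN1A, the CDK inhibitor p21, was at 1.42 with an adjusted p of 0.0041 and not called. Stress lists held members called in both directions. Endoplasmic reticulum chaperones had a median of 0.30, with DNAJB9 at 2.17 and ERN1, a sensor of unfolded proteins, at 1.66, and cytosolic heat shock proteins a median of -0.34, with HSPA1A at 2.58 and HSPD1 at -1.32. Among the chaperones, XBP1, a factor of the unfolded protein response, was called lower at -1.34. HSPA1A shares most of its sequence with a neighbouring copy, so its counts are uncertain. ATF4 targets had a median of -0.36, with PSAT1 lower and DDIT3, the factor CHOP, higher at 1.68 (SE 0.15, adjusted p = 1.1e-05).

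Genes of myeloid maturation went in both directions. Monocyte and macrophage genes had a median of 1.44 (20 of 33 tested, 5 called higher, 13 higher and 1 lower at 0.05), from a control median of -0.83 and an sgEPCR median of 1.00. ITGAX, the integrin CD11c, gave 37.5, 39.4 and 38.1 CPM in control DMSO, 18.9, 18.4 and 23.2 in control UM171, 10.3, 14.3 and 14.3 in sgEPCR DMSO and 93.5, 59.2 and 92.3 in sgEPCR UM171. The 4 groups did not overlap, and the responses were opposite. The genotypes crossed over, with sgEPCR libraries below control in DMSO and above it in UM171. The difference was 3.57 (SE 0.27, adjusted p = 2.9e-06). TREM1, an amplifier of innate signals, was at 5.47, GPNMB, a lysosomal glycoprotein of macrophages, at 4.25, LILRB4 at 1.98 and FCGR1A, the high-affinity Fc gamma receptor, at 2.06, though near-identical copies of FCGR1A may share its reads. TREM1 had 6, 20 and 22 counts in sgEPCR DMSO and could not be tested with at least 10 counts in every library. CSF1R (-0.29), CD68 (0.44) and CD33 (-0.04) did not pass an adjusted p of 0.05. Leukocyte integrins and adhesion genes had a median of 0.87 (28 of 31 tested, 6 called higher and none lower, 15 higher and 5 lower at 0.05), and PECAM1 was at 3.49 (SE 0.13, adjusted p = 5.9e-08).

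Mast cell, basophil and eosinophil genes had the highest list median, 3.02, with 8 of the 16 tested members called higher, 11 higher at 0.05 and 2 lower, out of 30 in the list. Members that passed the count filter through the sgEPCR UM171 group had to differ, so this median is a description. IL3RA, the alpha chain of the IL-3 receptor, gave 28.5, 27.9 and 29.6 CPM in control DMSO, 16.1, 16.2 and 16.3 in control UM171, 8.29, 12.5 and 11.6 in sgEPCR DMSO and 50.1, 37.6 and 50.8 in sgEPCR UM171, at 2.91 (SE 0.22, adjusted p = 3.0e-06). ALOX5, which makes leukotrienes, was at 4.29 and SIGLEC6, a sialic acid receptor, at 4.86. In sgEPCR DMSO ALOX5 had 5, 13 and 19 counts and SIGLEC6 5, 8 and 15. With limma on log2(TPM + 1) they were at 2.38 and 2.64. Neither could be tested with at least 10 counts in every library. The tryptases TPSAB1 (2.80) and TPSB2 (3.18), near-identical genes whose reads may be split, and PRG2 (3.13) were also called, as were ENPP3 and SLC24A3. CTSG at -1.66 and RNASE3 at -1.34 were lower at an adjusted p under 0.05. The control medians of the list were 0.20, 0.09, 2.31 and 2.53 at 6, 24, 48 and 72 h.

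Of the progenitor, granule and growth factor receptor lists, none had most members past the strict limits. The neutrophil granule list had a median of -0.14 (11 of 26 tested, 1 called lower, 3 higher and 4 lower at 0.05), a sign that turned under several settings, and the haematopoietic growth factor receptors one of 0.24 (22 of 28 tested, 3 called higher and 2 lower, 8 higher and 7 lower at 0.05). MPO, the peroxidase of primary granules and the called granule gene, gave 5.48, 5.43 and 5.02 CPM in control DMSO, 9.11, 10.1 and 10.4 in control UM171, 17.7, 18.8 and 19 in sgEPCR DMSO and 1.82, 1.75 and 1.39 in sgEPCR UM171. The groups did not overlap, and the sgEPCR groups were the highest and the lowest of the 4. Its difference was -4.38 (SE 0.16, adjusted p = 5.9e-08), the most negative of the named genes. BCL11A, a transcription factor of lymphoid and dendritic precursors, was at -4.05 (SE 0.28, adjusted p = 1.9e-06) and TAL1, a stem cell factor, at -1.45 (SE 0.12, adjusted p = 5.4e-06). FLT3, a growth factor receptor of progenitors, gave 10, 9.76 and 9.05 CPM in control DMSO, 8.78, 9.25 and 9.5 in control UM171, 43, 42 and 44.3 in sgEPCR DMSO and 7.06, 8.08 and 7.74 in sgEPCR UM171. The sgEPCR DMSO libraries were far above the other 3 groups, among which the sgEPCR UM171 libraries were the lowest. The difference was -2.43 (SE 0.12, adjusted p = 2.5e-07). The stem and progenitor factor list had a median of -0.65 (34 of 41 tested, 3 called lower, 16 lower and 3 higher at 0.05). GATA2, at -0.31 (SE 0.29, adjusted p = 0.41), had responses of 1.75 and 1.44.

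The LSD1-CoREST list, which holds the complex that UM171 targets, had a median of -0.42 (18 of 20 tested, 2 called lower). KDM1A gave 139, 134 and 132 CPM in control DMSO, 177, 175 and 171 in control UM171, 165, 180 and 180 in sgEPCR DMSO and 98.1, 92.1 and 98.1 in sgEPCR UM171. Only the sgEPCR UM171 libraries lay below the control DMSO libraries, and the difference was -1.23 (SE 0.09, adjusted p = 2.7e-06). ZMYM3 was at -1.09 (SE 0.11, adjusted p = 2.1e-05). With limma on log2(TPM + 1) neither passed (adjusted p = 0.24 for KDM1A and 0.41 for ZMYM3). RCOR1, at 0.22 (SE 0.10, adjusted p = 0.092), and KBTBD4, at 0.26 (SE 0.22, adjusted p = 0.37), did not pass an adjusted p of 0.05.

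**Figure D5:**
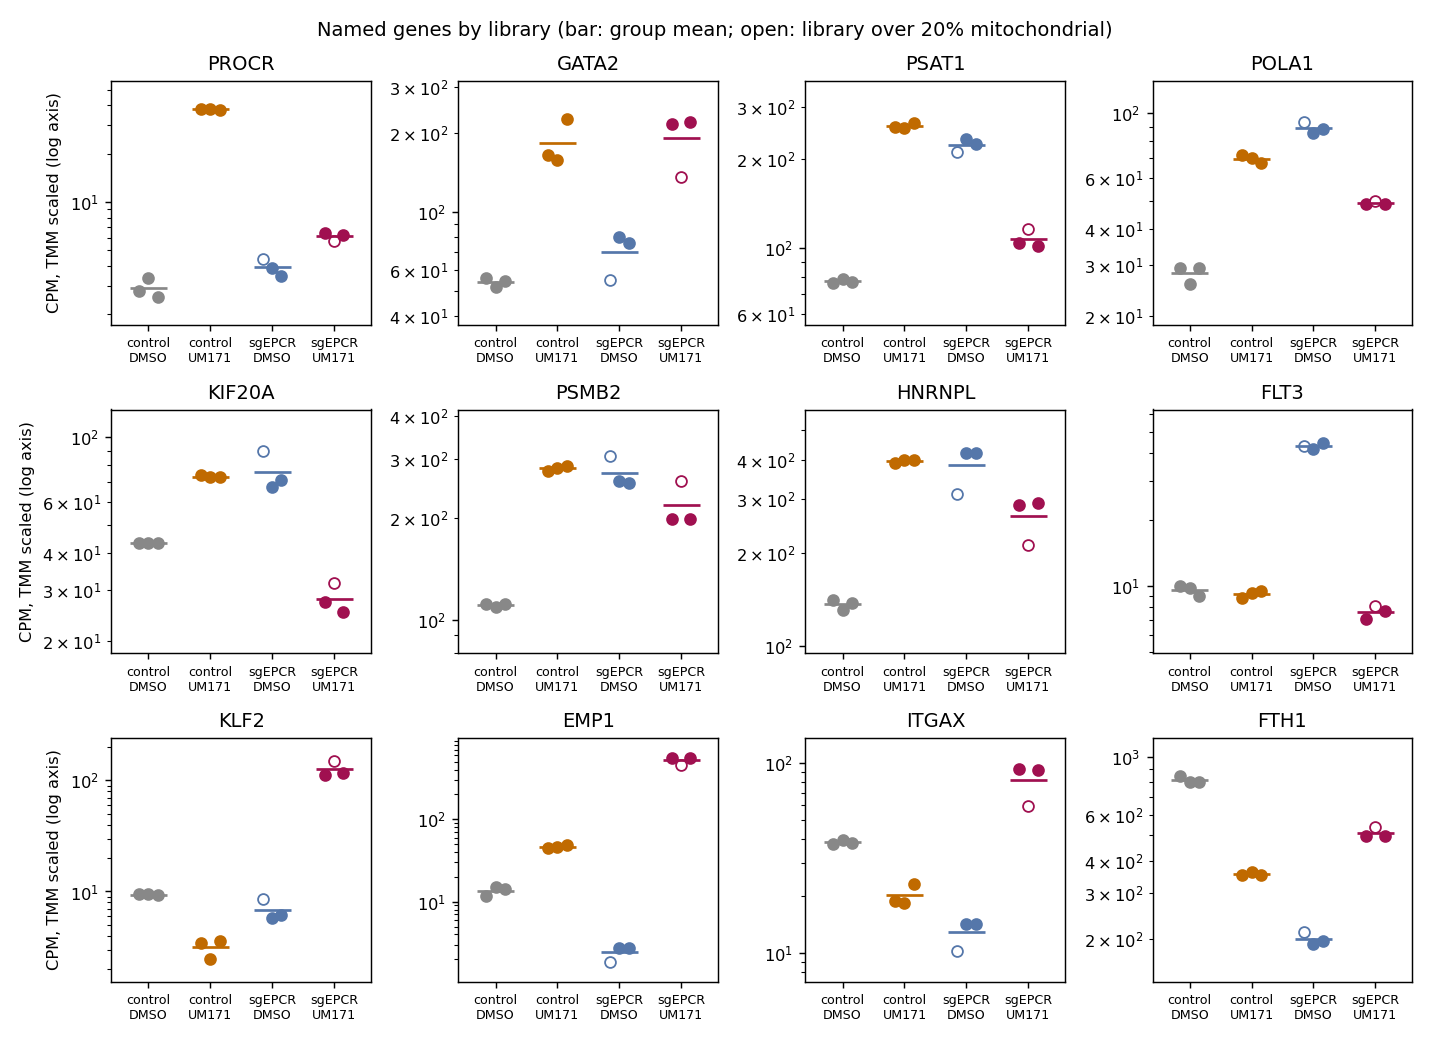
CPM (TMM scaled, log axis) of 12 genes in each library, with bars at group means and open circles for the 2 libraries over 20% mitochondrial. PROCR is high in control UM171 only (37.6 to 38.1 CPM), and PSAT1 and POLA1 are high in control UM171 and sgEPCR DMSO. PSMB2 is low in control DMSO only, its sgEPCR groups overlapping, and KLF2 and EMP1 are high in sgEPCR UM171.

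Several of the most positive differences among the named genes were in genes with low levels in sgEPCR DMSO cells. SLAMF7, a surface receptor of leukocytes, gave 6.59, 5.63 and 6.02 CPM in control DMSO, 15.7, 13.7 and 15.7 in control UM171, 0.109, 0.295 and 0.326 in sgEPCR DMSO and 53.9, 51.3 and 53.5 in sgEPCR UM171, at 6.30 (SE 0.24, adjusted p = 6.5e-08). EMP1, an epithelial membrane protein, reached 559, 457 and 557 CPM in sgEPCR UM171 against 44.4, 46.5 and 48.3 in control UM171, and was at 5.95 (SE 0.21, adjusted p = 5.9e-08). OPTN, an autophagy receptor, was at 6.30, AQP9, a water and glycerol channel, at 5.85, LMNA, the nuclear lamin A/C, at 5.83, and OLR1, a scavenger receptor, at 5.71. In sgEPCR DMSO the long noncoding RNA LUCAT1 (5.22) had 0, 2 and 2 counts, AQP9 2, 4 and 4, OPTN 3, 5 and 7, NR4A3 6, 3 and 3, TPSB2 5, 8 and 7, and SLAMF7 2, 10 and 14. These lie at or near the floor of 3 counts, so the fitted values depend on the prior count and are not bounds. THBS1, the secreted matrix protein thrombospondin, was at 5.08 (SE 0.20, adjusted p = 7.1e-08), in the TGF-beta and BMP signalling list, whose median was 0.20 (7 called higher and 1 lower of 29 tested). The list of the protein C receptor, thrombin receptors and coagulation had a median of 0.97 (5 called higher and 2 lower of 20 tested). In it PLAUR, the urokinase receptor, was at 1.93 and THBD, thrombomodulin, at 1.69, and the lower members were PROCR itself and F2R, the thrombin receptor PAR1, at -1.38.

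The most negative differences among called genes in no list, counting those whose mean log2 CPM exceeded 2 and whose libraries were separated, were in UGT3A2, a glycosyltransferase, at -3.97 (SE 0.15, adjusted p = 5.9e-08), PAWR, a pro-apoptotic regulator, at -3.93 (SE 0.19, adjusted p = 2.6e-07), IRAG1 at -3.79, TSPOAP1 at -3.74 and PTPN3, a tyrosine phosphatase, at -3.44. UGT3A2 gave 0.866, 0.943 and 0.927 CPM in control DMSO, 23.3, 24.8 and 25.6 in control UM171, 10.7, 8.68 and 9.34 in sgEPCR DMSO and 15.4, 17.3 and 16.3 in sgEPCR UM171. The control DMSO libraries were the low ones here, whereas for MPO and PAWR the sgEPCR DMSO libraries were the high ones. BCYRN1 (-3.46) derives from an Alu repeat, and its counts are uncertain.

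Single genes of iron storage, lysosome and cytoskeleton were called higher in lists with medians near that of all genes. FTH1, the ferritin heavy chain, gave 846, 801 and 803 CPM in control DMSO, 353, 362 and 351 in control UM171, 213, 192 and 196 in sgEPCR DMSO and 497, 541 and 498 in sgEPCR UM171, at 2.56 (SE 0.10, adjusted p = 6.6e-08). FTH1 has processed copies in the genome that may take some of its reads. Its list, heme and iron handling, had a median of -0.17 (24 tested, 3 called higher and 2 lower). MAP1LC3B, the autophagosome protein LC3B, was at 1.75 (SE 0.10, adjusted p = 7.4e-07) in a list with a median of 0.09, and CD63, a lysosomal tetraspanin, at 1.23 in a list with a median of 0.22. VIM, the intermediate filament vimentin, was at 1.49 (SE 0.10, adjusted p = 1.9e-06) in an actin cytoskeleton list with a median of 0.22. Replication-dependent histones had a median of 0.76 (18 of 27 tested, 2 called higher, none lower at either limit). Their messages mostly lack a poly(A) tail and their family members share sequence, so their counts are uncertain. The nuclear RNA NEAT1, the scaffold of paraspeckles, was at 2.16 (SE 0.11, adjusted p = 2.7e-07) in a list of 11 noncoding RNAs with a median of -0.17. ALDOC, an aldolase, was at 4.94 and PDK1, which restrains pyruvate oxidation, at -1.50, and glycolysis as a list had a median of -0.37 (1 called higher and 4 lower of 23 tested).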

How the data were processed

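RNA-seq of OCI-AML5 cells was taken from the deposited gene-level tables of the authors, who aligned reads to GRCh38 with STAR 2.5.1b after Trimmomatic 0.35 and CASAVA 1.8.2 and quantified them with RSEM 1.2.28, per the submitters' processing notes. The deposited expected counts (not normalized) were rounded to whole numbers after 45 pseudoautosomal Y entries were summed with their X copies, and the deposited TPM values of the authors served only an alternative with a pseudocount of 1.

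The 12 libraries (24.3 to 51.5 M counts) were fitted as 4 group means with edgeR 4.0.16 in R 4.3.3 (TMM scaling, filterByExpr, quasi-likelihood test, Benjamini-Hochberg adjustment over 15901 genes, common biological coefficient of variation 0.187). The contrast was the sgEPCR response minus the control response. The pipeline was tested on simulated data. limma 3.58.1 and DESeq2 1.42.0 served alternatives, as did other scalings and filters, a GC offset, a replicate block and leaving out libraries.

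The members and lists were chosen with earlier results of these data known. Named genes were 6 named in advance (PROCR, KDM1A, RCOR1, KBTBD4, MYC, GATA2), the 8 largest called differences in each direction (average log2 CPM above 2, libraries not overlapping, outside inflammation and detoxification lists), and up to 2 called members of each pathway list that are in no inflammation or detoxification list. Other list members (among them KLF2, KLF6, FOSB, JUN, ATF3, BTG2, PLK2, FCGR1A, LILRB4, TPSAB1, TPSB2, PRG2, ENPP3, SLC24A3, PLAUR and THBD) were named after their values were seen. Inflammation and detoxification were left out, and 1 list and some named genes are not reported here.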

Additional observations from a re-analysis of the deposited data

Results flagged for a closer look

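The responses of the genotypes differed by the test of the difference itself (edgeR's quasi-likelihood test with Benjamini-Hochberg adjustment) for 1236 genes past both limits. For 41 of these each response also passed the limits on its own, in opposite directions. The named genes among the 41 with a positive response in control cells and a negative one in sgEPCR cells had differences of -3.79 for IRAG1, -2.23 for SNRPA, -2.79 for PSAT1, -3.36 for ELOVL6 and -3.93 for PAWR. Those with a negative response in control cells and a positive one in sgEPCR cells had differences of 4.25 for GPNMB, 2.56 for FTH1, 5.71 for OLR1, 3.27 for the histone gene H2BC21 and 3.49 for PECAM1. Groups of 3 libraries were too small for a search for single outlying values.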

How the results depend on the processing

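The count of 1236 called genes was 2571 with DESeq2, 2426 with all 21 libraries, 3120 without the mitochondria-rich libraries, 4125 at an adjusted p under 0.05 and over 2-fold, 577 with a GC offset, 424 with total count scaling, 29 with limma, and 617 to 1722 with single libraries left out (801 or fewer without any 1 of the other 10 libraries, 1295 and 1722 without sgEPCR DMSO replicate 1 and sgEPCR UM171 replicate 2, the mitochondria-rich ones). With a replicate block it was 0, and 0 with the GC offset and the block, while 5018 and 3461 genes passed an adjusted p of 0.05, as did 88 and 83 of the 88 called named genes. Same-numbered sgEPCR libraries, as deviations from their group means, correlated at -0.609, -0.604 and 0.448. The mitochondria-rich libraries, DMSO replicate 1 and UM171 replicate 2, correlated at 0.688. Because these outlying libraries set the group means apart, the correlations cannot show whether the numbers mark pairs. The 7158 genes at 0.05 became 2011 with limma and 11328 without the mitochondria-rich libraries. Of called genes 46.4% were higher, against 59.9% with upper quartile and 63.4% with total count scaling, which moved the median of all genes from -0.02 to 0.12. At 0.05 the 48.7% became 59.7% with total count scaling and 70.2% with limma. Every called named gene that could be tested kept its direction, and 64 of 88 passed 0.05 with limma. Of those described in the report, KDM1A, ZMYM3, LUCAT1, ACAT2, INSIG1, ATP5MC1, FH, POLR1B, HSPD1, ERN1, FARSB, IARS1, PDK1, SHMT1, CDKN2C and TAL1 did not.

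Some list medians changed sign. Cytosolic ribosomal proteins (-0.18) gave 0.05 and chromatin regulators (-0.22) 0.01 with limma. Hypoxia (-0.13) gave 0.11 with limma, 0.01 with upper quartile and 0.00 with total count scaling, and -0.19 to 0.02 with single libraries left out (0.02 without sgEPCR DMSO replicate 1). Neutrophil granule genes (-0.14) gave 0.34 with limma, 0.00 with upper quartile scaling or without the mitochondria-rich libraries, and -0.51 to 0.10 with single libraries left out (0.08 and 0.10 without control DMSO replicates 2 and 3, 0.01 without control UM171 replicate 3 and 0.03 without sgEPCR DMSO replicate 1). cAMP genes (0.18) gave -0.02 with the GC offset. Autophagy (0.09) gave -0.05 with it, -0.04 with the block too and -0.03 without sgEPCR UM171 replicate 3. Nuclear noncoding RNAs (-0.17) gave 0.15 with limma and -0.26 to 0.02 with single libraries left out (0.02 without sgEPCR DMSO replicate 1). Mitochondrially encoded genes (-0.25) gave 0.20 with limma, 1.48 without sgEPCR DMSO replicate 1 and -1.61 without sgEPCR UM171 replicate 2. Dendritic genes (1.32) gave -0.77 with at least 10 counts in every library. The causes were not tested.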
